A study of Homo sapiens with 4 samples.

Results

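Of the 23228 gene symbols counted in OCSCs labelled as SKOV3-ALDH+, 36 were followed here as classical estrogen-responsive genes, a list of genes known to be induced through estrogen receptor alpha (ERα) in breast cells. Members were taken by symbol from the count table, and all 36 symbols were found. The study asked what LY500307, an agonist of estrogen receptor beta (ERβ), does to ovarian cancer stem cells (OCSCs). The SKOV3 line was established from human ovarian cancer, and its ALDH+ cells, those with high aldehyde dehydrogenase activity, were sorted with the ALDEFLUOR kit and grown as spheroids. RNA was sequenced after 24 h with vehicle (2 samples) or with 5 µM LY500307 (2 samples). Both groups shared the serum-free medium, which held B27, EGF, bFGF, hydrocortisone and insulin. The cells came from 1 line and 1 gate, and the labels do not say whether the samples of a group were separate cultures, so p-values measure the spread between these samples, which may be technical.

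ERα is a ligand-activated transcription factor. Bound to estrogen, it pairs with a second receptor molecule and binds the estrogen response element (ERE), a short inverted repeat, or it is held at other sites by factors such as AP-1 and Sp1. In breast cells it acts together with FOXA1, which opens chromatin, and GATA3, and it drives genes such as GREB1, TFF1 and PDZK1. ERβ recognises the same element. Many of these genes are also used by cells without ERα, under other factors, so that their level alone does not report receptor activity.

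To see which members carry such an element, RefSeq promoters (GRCh38.p14, 250 bases before to 50 bases after each start) were searched on both strands, and 27 of the 36 members were in that table. The others (ADCY9, EGR3, FKBP4, GREB1, KLF10, KRT19, TFF1, TFF3 and WISP2) were not searched. The full ERE, GGTCA and TGACC with any 3 bases between them, was found in 0 of the 27 members and in 0.0732% of the 27305 genes of the table. Its single arm AGGTCA, a part of the full element when an A precedes it, was found in 2 members (7.41%) and in 16.5% of all genes. The AP-1 element TGANTCA was found in 1 member, GATA3 (3.7%, against 9.37% of all genes), and the Sp1 element GGGCGG in 23 members (85.2%, against 48.3%). A gene counted if any of its promoters matched. Per promoter (46 of members, 35116 in all) the shares were 67.4% against 45% for Sp1. They were 6.52% against 13.8% for the single arm and 2.17% against 7.71% for AP-1. The table also lists noncoding genes, so these shares are not matched for gene type. In a wider search chosen after these results, within 10 kb on either side of the GENCODE gene start in GRCh37, the full ERE was found near 2 of the same 27 members (7.41%) and near 1.9% of 20176 protein-coding genes. A match describes letters and is not a binding site. The sites are shown because they are the only full or single-arm elements that these searches found at the members. Letters in capitals mark the element, and all are written 5′ to 3′ on the strand of the gene.

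CELSR2, full ERE, 3.12 kb before the gene start and in no annotated gene, GRCh37 chr1:109789027-109789055, plus strand: ccacaaaaGGTCACCATGACCgatcccat
SIAH2, full ERE, 6.83 kb after the gene start and within its intron, GRCh37 chr3:150474423-150474451, minus strand: ttttcacaGGTCACCATGACCtggaacta
CXCL12, single arm, GRCh38.p14 chr10:44385293-44385314, minus strand: gcctgagaAGGTCAaaggccgg
PDZK1, single arm, GRCh38.p14 chr1:145707456-145707477, minus strand: caggacagAGGTCActtgaatt

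The libraries held 28841701 to 34943882 reads on genes, of which the members took 0.122% to 0.127%. The receptor set was checked first. ESR1, which encodes ERα, had 0 reads in each of the 4 samples, and a count of 0 allows up to 3 reads, or 0.0864 to 0.106 CPM (counts scaled to a common library total), for counting error only. ESR2, which encodes ERβ, had 7 and 8 reads with vehicle and 12 and 7 reads with LY500307, and it did not pass the expression filter. GPER1, the membrane estrogen receptor, had 249 and 221 reads with vehicle and 265 and 290 with LY500307, and its log2 fold change was 0.05 (standard error 0.18). The cells labelled SKOV3 lacked several epithelial markers of ovarian carcinoma. PAX8 was at 0 reads in all samples, KRT7 had 0 to 1 reads and CDH1 0 to 4. EPCAM was high, with 6213 to 8327 reads, and KRT18 had 668 to 1030. The 6 fibroblast markers together had 906 and 915 CPM with vehicle and 994 and 1170 CPM with LY500307, led by the collagen genes. Of the 6, 0 were at 0 reads. An unadjusted p below 0.05 was given to 2 (COL1A1 and COL1A2, both higher with LY500307). Of all genes tested, 11.6% had such a p, 6.09% higher. COL3A1 was also higher in both LY500307 samples than in both vehicle samples, DCN and LUM were lower in both, and PDGFRB overlapped. Over all genes tested, 24.2% were higher and 24.4% lower in this way. The 4 endothelial markers came almost wholly from KDR, with PECAM1, VWF and CDH5 at 0 to 11 reads. The part that cell identity has in the values of the members was not tested. Of 4 ALDH isoforms read out because of the sort, ALDH1A2 had 315 to 347 reads and ALDH1A1 had 134 to 185. ALDH1A3 had 8 to 16 reads and ALDH3A1 had 2 to 10.

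Of the 36 members, 29 passed the expression filter. CTSD and WFS1 were higher and KLF10 lower with LY500307 at an unadjusted p below 0.05 (3 of 29 members), where 11.6% of all 14473 genes tested had such a p, 6.09% higher and 5.5% lower. None of the 29 reached the limits that the study set for a differentially expressed gene, which add an absolute log2 fold change above 0.5 and which 4.62% of all genes tested met (2.76% higher and 1.86% lower). An adjusted p below 0.05 was given to 0 of the 29 members, and to 0% of all genes, when edgeR's quasi-likelihood p-values were adjusted by Benjamini-Hochberg. DESeq2 also gave an unadjusted p below 0.05 to 3 members, against 9.88% of all genes. It put 0 members past both limits, against 4.01%, and gave an adjusted p below 0.05 to 0, against 0.138%. The median log2 fold change of the members tested was -0.062, beside 0 for all genes tested, and 12 of the 29 (41.4%) had a log2 fold change above 0, beside 50% of all genes. From its RNA-seq the study reported positive enrichment of late estrogen response genes with LY500307, by gene set enrichment analysis. That gene set is not the list followed here, and no set test was run on the members. The smallest two-sided p that an exact permutation test allows with 2 samples per group is 0.333.

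**Figure D1:**
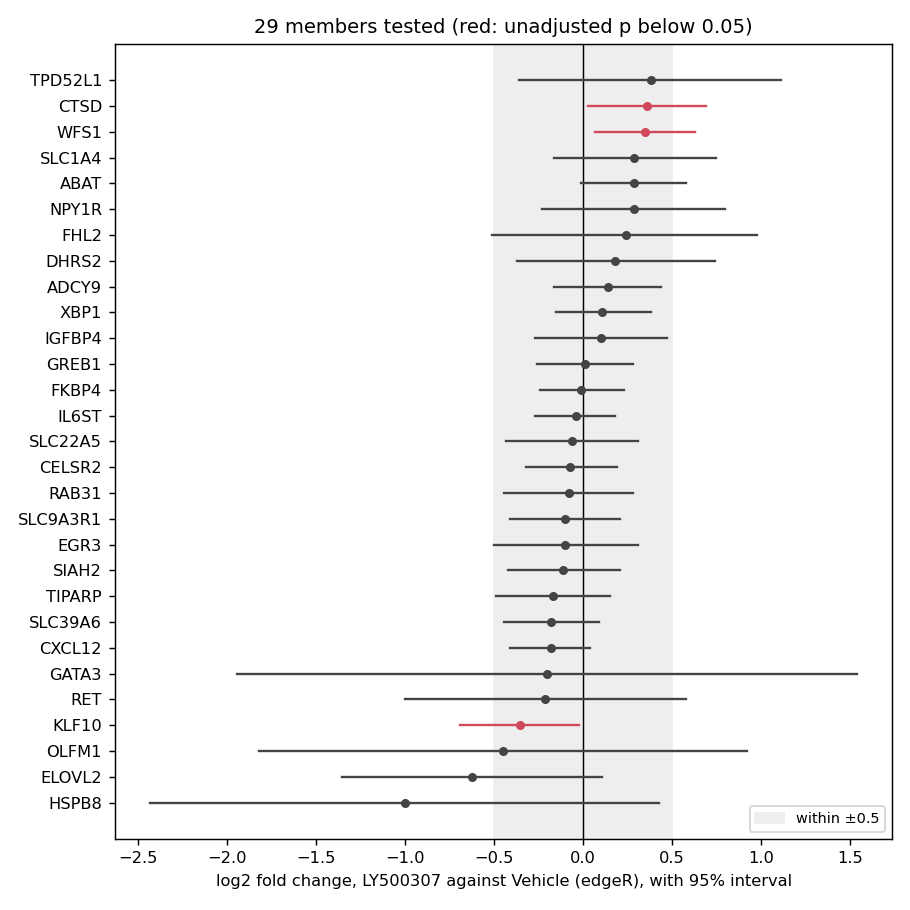
Log2 fold change of each of the 29 members tested (LY500307 against vehicle, edgeR, x axis) with its 95% interval, 1 gene per line; the grey band marks a log2 fold change within 0.5 of 0 and red marks an unadjusted p below 0.05. All but 2 estimates (ELOVL2 and HSPB8) lie inside the grey band, and the intervals widen for genes with few reads.

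The intervals give the range of changes that the fitted spread allows. That spread was shared by both groups although the pairs differed in spread, and it may be technical. How well the intervals cover true changes is therefore not known. For 24 of the 29 members the 95% interval of the log2 fold change lay within 1 of 0, so that a doubling or a halving lay outside it, and 79.6% of all genes tested had such an interval. For 14 members the interval lay within 0.5 of 0, against 43.1% of all genes. The 5 members whose intervals reached past 1 were OLFM1, GATA3, TPD52L1, ELOVL2 and HSPB8, each with at most 93 reads per sample.

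Among the 7 secreted factors, 4 had no reads at all. TFF1 and TFF3, the trefoil peptides of mucosal surfaces, the growth factor AREG and the matricellular protein WISP2 were at 0 reads in each sample, which allows up to 0.0864 to 0.106 CPM per sample. For AREG this count says little, since 77.6% of the 50-base words of its transcript occur more than once in GRCh37, whereas 0% of those of TFF1, TFF3 and WISP2 do. Reads that matched several places were not assigned to genes. CXCL12, a chemokine encoded on chromosome 10 of GRCh37 from 44865613 to 44881941, had 2907 and 2694 reads with vehicle and 2866 and 2787 reads with LY500307. After scaling this was 95.9 ± 1.56 CPM (SD, n = 2) against 84.4 ± 2.58 CPM (SD, n = 2), with both LY500307 samples below both vehicle samples. Its log2 fold change was -0.18 (95% interval -0.41 to 0.04, edgeR adjusted p = 0.456), so the difference did not pass the test. IGFBP4, which binds and restrains insulin-like growth factors, had a log2 fold change of 0.10 (95% interval -0.27 to 0.47). OLFM1, a secreted olfactomedin glycoprotein, had 8 to 13 reads per sample, too few to show a change of the size seen in other genes.

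**Figure D2:**
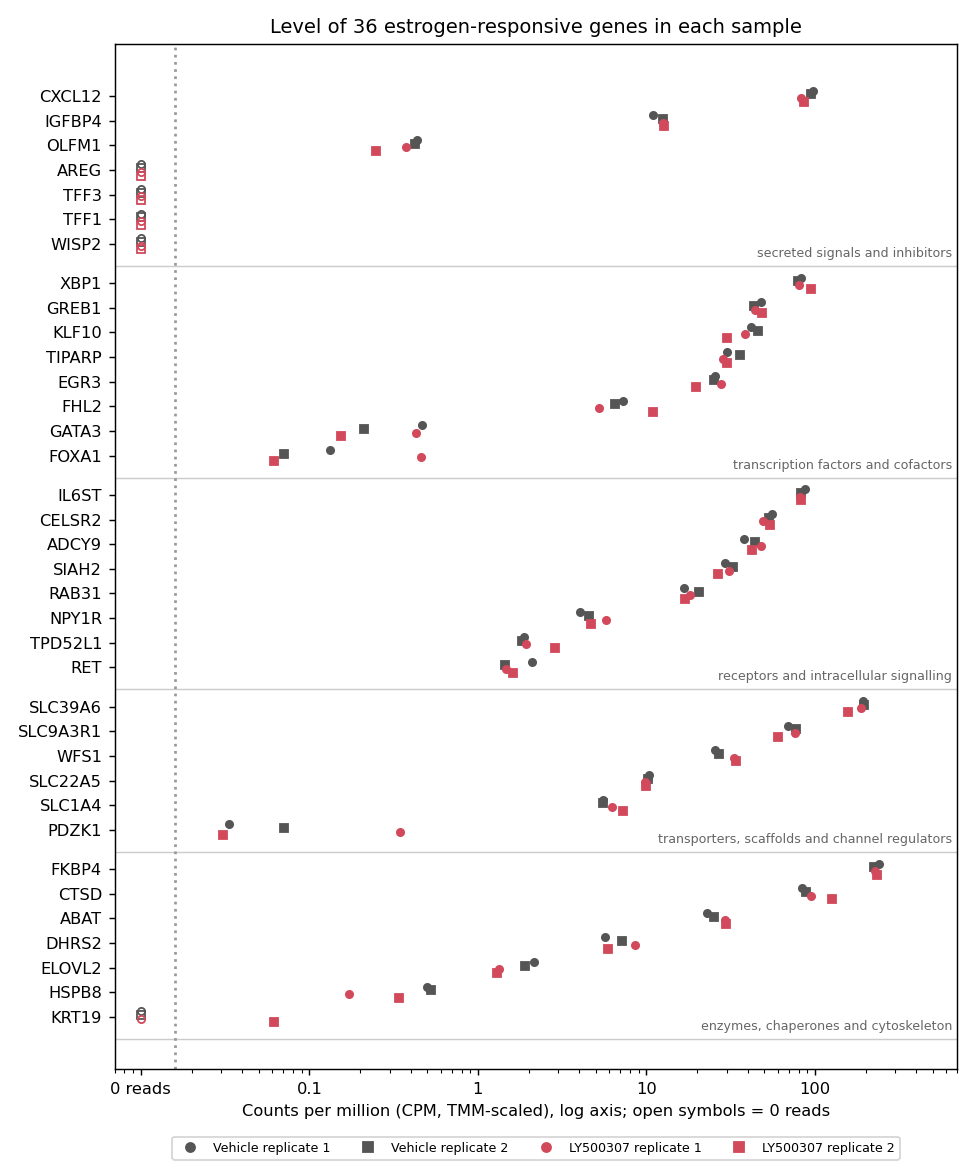
Level of each of the 36 members in each sample, in CPM on a log axis, grouped by role; grey symbols are vehicle and red symbols LY500307, circles are replicate 1 and squares replicate 2, and open symbols left of the dotted line stand for 0 reads. In most members the red and grey symbols lie close together, from 0 reads in TFF1 to between 223 and 241 CPM in FKBP4, and FOXA1 and PDZK1 have a single high sample, LY500307 replicate 1.

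Among the 8 transcription factors and cofactors, 1 of 7 tested had an unadjusted p below 0.05, beside 11.6% of all genes tested. KLF10, a Krüppel-like repressor first described as a TGFβ-inducible early gene, had 1255 and 1297 reads with vehicle and 1328 and 975 with LY500307. In CPM this was 41.9 and 45.6 with vehicle and 38.3 and 30.2 with LY500307, so both treated samples were lower, replicate 2 by more. The log2 fold change was -0.35 (standard error 0.14, edgeR adjusted p = 0.428). It was -0.19 in a fit without LY500307 replicate 2 (edgeR adjusted p = 0.413) and -0.53 without LY500307 replicate 1. With samples scaled by library totals alone its unadjusted p was no longer below 0.05. XBP1, a factor of the unfolded protein response and of secretory cells, encoded on chromosome 22 from 29190543 to 29196585, had 82.2 and 79.4 CPM with vehicle and 79.9 and 94.9 CPM with LY500307. Its groups overlapped, and its log2 fold change of 0.11 (95% interval -0.15 to 0.38) became -0.01 without LY500307 replicate 2.

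GREB1, among the genes most closely tied to ERα in breast cancer, was well expressed in these cells without ESR1 reads. It had 48.1 and 43.7 CPM with vehicle and 44 and 48.4 CPM with LY500307, so that the range of one group covered nearly that of the other, and its log2 fold change was 0.01 (95% interval -0.26 to 0.28). FOXA1 and GATA3, the factors that act with ERα in luminal breast cells, were near the floor. FOXA1 had 4 and 2 reads with vehicle and 16 and 2 with LY500307, and GATA3 had 14 and 6 reads with vehicle and 15 and 5 with LY500307. In both genes 1 sample of each group was higher than the other, and the groups overlapped. The immediate early factor EGR3 (log2 fold change -0.10, standard error 0.18), the ADP-ribosyltransferase TIPARP (-0.17, standard error 0.14) and the LIM domain cofactor FHL2 (0.24, standard error 0.32) did not pass the test.

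All 8 receptors and signalling genes passed the filter. Beside 11.6% of all genes tested, 0 of the 8 had an unadjusted p below 0.05. Their log2 fold changes ran from -0.21 for RET, the receptor tyrosine kinase of GDNF family ligands, to 0.38 for TPD52L1, a coiled-coil protein of the tumor protein D52 family. IL6ST, the signalling chain of the interleukin-6 receptor family (gp130), had 86.7 and 82.6 CPM with vehicle and 81.2 and 82.9 CPM with LY500307, and its log2 fold change of -0.04 had a 95% interval of -0.27 to 0.18. CELSR2, a cadherin of planar cell polarity, and SIAH2, a ubiquitin ligase, had a full ERE within the wider window, printed above. They were the only such members among the 27 searched. CELSR2 had 55.5 and 53.0 CPM with vehicle and 49.3 and 54.2 CPM with LY500307 (log2 fold change -0.07, 95% interval -0.32 to 0.19). SIAH2 had 29.1 and 32.5 CPM with vehicle and 30.7 and 26.6 CPM with LY500307 (log2 fold change -0.11, 95% interval -0.42 to 0.21). In both genes the groups overlapped. The adenylyl cyclase ADCY9 (0.14, standard error 0.13), the small GTPase RAB31 (-0.08, standard error 0.15) and the neuropeptide Y receptor NPY1R (0.29, standard error 0.22) did not pass the test, although NPY1R was higher in both LY500307 samples than in both vehicle samples.

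Of the 6 transporters and scaffolds, 5 were tested, and WFS1 alone had an unadjusted p below 0.05. Over all genes tested, 11.6% had such a p. WFS1 encodes wolframin, a membrane protein of the endoplasmic reticulum, on chromosome 4 from 6271576 to 6304992. It had 763 and 769 reads with vehicle and 1144 and 1096 reads with LY500307, or 26.3 ± 1.13 CPM (SD, n = 2) against 33.4 ± 0.669 CPM (SD, n = 2). The groups did not overlap and the 2 LY500307 samples were close to each other. The log2 fold change was 0.35 (standard error 0.12, edgeR adjusted p = 0.422), and it lay between 0.31 and 0.39 when each sample was left out in turn, although its unadjusted p was above 0.05 with 1 vehicle sample left out, whichever it was. SLC39A6, the zinc importer LIV-1, on chromosome 18 from 33688494 to 33709348, had 192 and 196 CPM with vehicle and 187 and 156 CPM with LY500307. Both treated samples were lower, and the log2 fold change was -0.18 (95% interval -0.44 to 0.09, edgeR adjusted p = 0.53). Leaving out LY500307 replicate 2 gave -0.05, and leaving out replicate 1 gave -0.31. The scaffold SLC9A3R1 (-0.10, standard error 0.13), the carnitine transporter SLC22A5 (-0.06, standard error 0.16) and the neutral amino acid transporter SLC1A4 (0.29, standard error 0.20) did not pass. PDZK1, a scaffold that binds SLC transporters, had 1 and 2 reads with vehicle and 12 and 1 with LY500307. Of its 50-base words 61.5% occur more than once in GRCh37, so its reads could be undercounted.

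Of the 7 enzymes, chaperones and cytoskeletal genes, 6 were tested, and CTSD alone had an unadjusted p below 0.05, beside 11.6% of all genes tested. CTSD encodes the lysosomal aspartic protease cathepsin D, on chromosome 11 from 1773982 to 1785803. It had 2505 and 2514 reads with vehicle and 3291 and 4073 with LY500307, or 83.6 and 88.5 CPM against 94.8 and 126 CPM. Both treated samples were higher, replicate 2 by far the most. The log2 fold change was 0.36 (standard error 0.14, edgeR adjusted p = 0.428). It was 0.14 without LY500307 replicate 2 (edgeR adjusted p = 0.395) and 0.55 without LY500307 replicate 1. In GENCODE 44, 55.4% of its transcript is also covered by another gene on the same strand, ENSG00000250644, which the counting could have treated as ambiguous if the annotation used held it.

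FKBP4, the HSP90 cochaperone of steroid receptors (FKBP52), encoded on chromosome 12 from 2904136 to 2914589, was the most highly counted member. It had 241 and 223 CPM with vehicle and 228 and 233 CPM with LY500307, and its log2 fold change of -0.01 had a 95% interval of -0.24 to 0.23. ABAT, the GABA transaminase, had 22.9 and 25.3 CPM with vehicle and 29.3 and 29.5 CPM with LY500307, a separation without overlap whose log2 fold change of 0.29 had a 95% interval of -0.01 to 0.58 (edgeR adjusted p = 0.431). The fatty acid elongase ELOVL2 had 64 and 54 reads with vehicle and 46 and 42 with LY500307 (log2 fold change -0.62, standard error 0.32, edgeR adjusted p = 0.448). The small heat shock protein HSPB8 had 15 and 15 reads with vehicle and 6 and 11 with LY500307 (-1.0, standard error 0.62), and neither passed the test. DHRS2, a short-chain dehydrogenase, had an estimate of 0.18 on the log2 scale (standard error 0.24). KRT19, a keratin of simple epithelia, had 0 reads in 3 samples and 2 reads in LY500307 replicate 2. Of its 50-base words 0.447% were found more than once in GRCh37.

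When levels were compared between genes, in CPM per kb of the canonical transcript, FKBP4 (62.3), SLC39A6 (51.3), CTSD (47.8), XBP1 (47.0) and CXCL12 (46.8) led the members. SLC9A3R1 followed with 35.5, and KLF10 (13.4) and SIAH2 (12.9) came next. GREB1, whose transcript is long, had 5.39 CPM per kb. The list therefore ran from genes without reads to well-expressed ones. KRT19 (0.0111) was the lowest of those with reads, followed by FOXA1 (0.0518), PDZK1 (0.0582) and GATA3 (0.103).

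For many members the LY500307 samples differed from each other by more than the groups did. The difference between the LY500307 samples was larger than the size of the log2 fold change in 17 of the 29 members, as in 58.9% of all genes tested. The median absolute difference on the log2 CPM scale was 0.205 between the LY500307 samples and 0.124 between the vehicle samples, beside 0.216 and 0.106 for all genes tested. FHL2 had 218 and 185 reads with vehicle, and 182 and 356 with LY500307, so that it lay 0.39 below the vehicle mean in replicate 1 (log2 difference -0.39) and 0.67 above it in replicate 2. EGR3 (0.13 and -0.37) and GATA3 (0.38 and -0.81) lay on opposite sides in the other order. WFS1 (0.33 and 0.37) and ABAT (0.28 and 0.29) differed from the vehicle mean by nearly the same amount in both samples. After scaling, 6 members were higher in both LY500307 samples than in both vehicle samples (NPY1R, TPD52L1, SLC1A4, WFS1, CTSD and ABAT) and 7 were lower in both (CXCL12, OLFM1, KLF10, SLC39A6, SLC22A5, ELOVL2 and HSPB8). Over all genes tested, 24.2% were higher and 24.4% lower in this way, 48.6% in all.

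**Figure D3:**
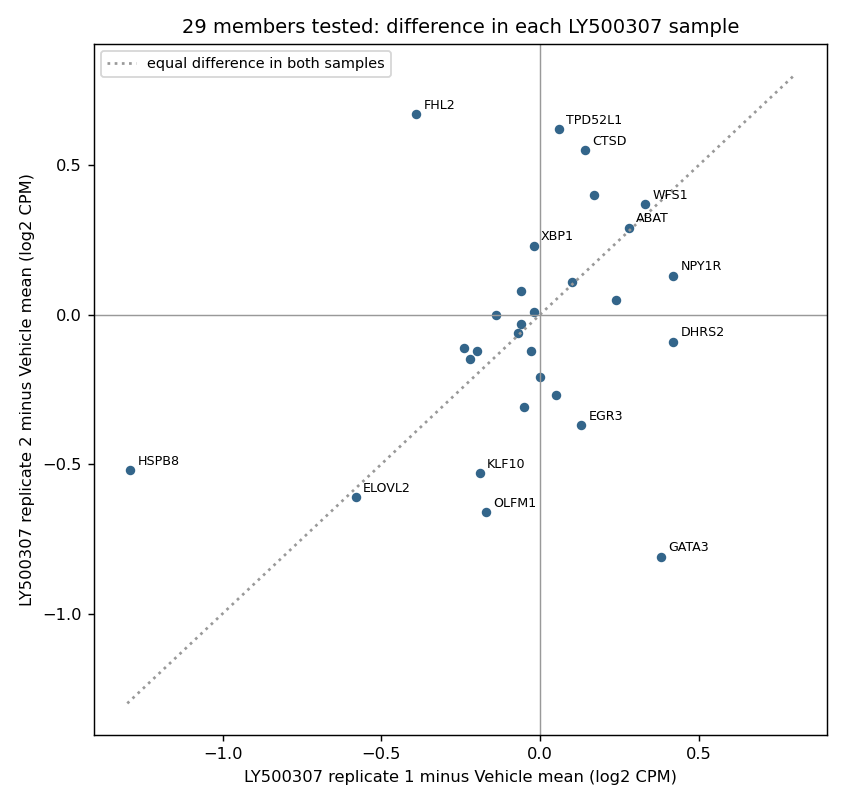
Difference of each LY500307 sample from the mean of the vehicle samples (log2 CPM) for the 29 members tested, replicate 1 on the x axis and replicate 2 on the y axis, 1 point per gene. Points on the dotted line differ equally in both samples, as WFS1 and ABAT nearly did, whereas FHL2 (-0.39 and 0.67) and GATA3 (0.38 and -0.81) lie on opposite sides of 0.

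Like the share of all genes called, the count of members called depended on single samples. It was 0 without vehicle replicate 1 and 0 without vehicle replicate 2 at an unadjusted p below 0.05, where 5.05% and 5% of all genes had such a p. It was 4 (ABAT, ADCY9, CXCL12 and WFS1) without LY500307 replicate 2, against 15.3% of all genes. Without LY500307 replicate 1 it was 9, against 40.3% of all genes, and 8 members (CTSD, EGR3, FHL2, KLF10, SLC39A6, SLC9A3R1, WFS1 and XBP1) had an adjusted p below 0.05 in edgeR's test, against 33.6% of all genes. In that fit CTSD, FHL2 and KLF10 also had an absolute log2 fold change above 0.5, as did 13.3% of all genes. The lone LY500307 sample is there assumed to vary as little as the vehicle samples. In every other alternative 0 members passed both limits. The share of all genes that did so was 4.81% without vehicle replicate 1, 4.78% without vehicle replicate 2 and 2.37% without LY500307 replicate 2, where 3.97% had an adjusted p below 0.05. It was 4.64% with DESeq2 size factors, 4.8% with library totals alone, 4.43% with all genes of at least 1 count, 4.5% with at least 1 CPM in at least 2 samples and 4.95% with the replicate number as a block. With that block 0.00691% of all genes had an adjusted p below 0.05.

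A list of 24 further estrogen-induced genes was read from the same test, and 21 passed the filter. Of these, 3 met both limits of the study (1 higher, 2 lower), beside 4.62% of all genes tested, and an adjusted p below 0.05 was given to 0 by edgeR and to 1, STC2, by DESeq2, beside 0% and 0.138% of all genes tested. STC2, the secreted glycoprotein stanniocalcin-2, had 1522 and 1609 reads with vehicle and 1171 and 1101 with LY500307, and its log2 fold change was -0.66 (standard error 0.12, edgeR adjusted p = 0.422, DESeq2 adjusted p = 0.0217). MYBL1, a transcription factor of the MYB family, changed by a log2 fold of -0.77 (standard error 0.16, edgeR adjusted p = 0.422). PRLR, the prolactin receptor, had 3 and 0 reads with vehicle and 14 and 12 with LY500307, and the fitted log2 fold change was 2.83 (standard error 1.01, edgeR adjusted p = 0.422) and rests on few reads. PGR, the progesterone receptor and a standard readout of ERα activity, had 0 reads in all 4 samples. CCND1 (log2 fold change 0.06, standard error 0.10) and NRIP1 (-0.19, standard error 0.10) were highly expressed and did not pass the test. Over the 21 genes the median log2 fold change was 0.113, and 14 (66.7%) were above 0, beside 0 and 50% for all genes tested. An unadjusted p below 0.05 was given to 4 (KRT18 and PRLR higher, STC2 and MYBL1 lower), beside 11.6%. After scaling, 8 were higher in both LY500307 samples than in both vehicle samples and 7 lower in both, beside 24.2% and 24.4%. The study had itself named STC2 and MYBL1 among its downregulated genes in these samples, so they are not independent evidence of a direction.

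**Figure D4:**
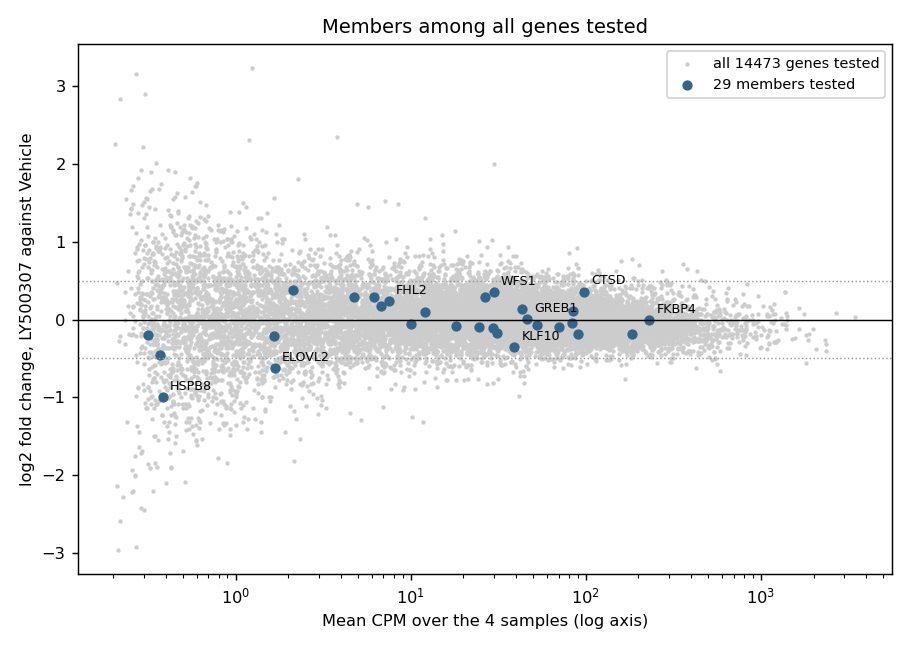
Log2 fold change (LY500307 against vehicle, y axis) against mean CPM over the 4 samples (x axis, log scale) for all 14473 genes tested (grey) and the 29 members tested (blue); dotted lines mark a log2 fold change of 0.5 in either direction. The members lie within the spread of genes of like level, and the largest departures, HSPB8 (-1.0) and ELOVL2 (-0.62), are among those with few reads.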

How the data were processed

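RNA-seq was analysed for 4 samples, 2 per group, with groups and replicate numbers taken from the sample titles. The authors deposited raw counts, the number of reads on each gene symbol without normalization. Per the labels, 50 nt single-end reads were aligned to hg19 with TopHat2 2.0.8b and counted with HTSeq. The strand setting is not given in the sources used here, so antisense overlaps are uncertain. Reads in no gene (17.3% to 20.5% of tallied alignments), in several genes (0.44% to 0.481%) and at several places (32.3% to 33.4%) were left out. Differences between groups were fitted to these counts by edgeR 4.0.16 under R 4.3.3 (TMM, filterByExpr, quasi-likelihood test, Benjamini-Hochberg adjustment over 14473 genes), with DESeq2 1.42.0 as an alternative. Standard errors were taken as the size of the log2 fold change divided by the square root of F, and 95% intervals use the test's degrees of freedom. CPM uses TMM-scaled totals, and differences between samples use log2 CPM with a prior count of 2. The procedure was also run on simulated counts drawn with the same spread in both groups. The pairs of samples here differed in spread, so that run cannot vouch for these p-values or intervals. Positions, canonical transcripts and repeated 50-base words came from GENCODE 44 on GRCh37, the same build as hg19.

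The members and lists were chosen with earlier results of these data known. Values per sample are given for members with an unadjusted p below 0.05 by edgeR or DESeq2, for the 5 highest by mean CPM and for the estrogen receptors. Other values per sample, and the wider ERE window, were chosen after values were seen. Same-group samples differed beyond sampling noise (chi-square per degree of freedom 5.16 for vehicle and 42.5 for LY500307). Alternatives were other scaling, DESeq2, other filters, a replicate block and leaving out each sample.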

Additional observations from a re-analysis of the deposited data

How the results depend on the processing

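With DESeq2 size factors, the DESeq2 test, both other filters and the replicate block, 3 members had an unadjusted p below 0.05 (CTSD, WFS1 and KLF10), 0 met both limits and 0 had an adjusted p below 0.05. With library totals alone the 3 members were ABAT, CTSD and WFS1. Leaving out each sample in turn, these counts ran from 0 to 9, from 0 to 3 and from 0 to 8, and the further genes meeting both limits from 2 to 4. The median log2 fold change of members, -0.06, was -0.02 with library totals alone, -0.02 with all genes of at least 1 count, -0.03 with at least 1 CPM in at least 2 samples and -0.05 to 0.02 with a sample left out, all close to 0. The causes were not tested. Of 80 values for single genes (8 genes, 10 alternatives), 6 changed sign and 2 moved past both limits. CTSD, WFS1 and KLF10 had an unadjusted p above 0.05 with 1 vehicle sample left out, whichever it was, as KLF10 had with library totals alone. The log2 fold change of SLC39A6 ran from -0.31 to -0.05 with a sample left out. FKBP4 changed sign with library totals alone (0.03), without vehicle replicate 1 (0.05) and without LY500307 replicate 1 (0.01), XBP1 without LY500307 replicate 2 (-0.01, up to 0.23 with another sample left out), and GPER1 without vehicle replicate 2 (0.00) and without LY500307 replicate 2 (-0.07, up to 0.16). CTSD (0.55) and KLF10 (-0.53) passed both limits without LY500307 replicate 1. The deviations of same-numbered samples had a correlation of -0.0701 across genes tested and 0.183 across members tested, and the numbers were not treated as pairs. Adding the replicate block, 717 genes met both limits, beside 669 without it. Depth leaves OLFM1, GATA3, HSPB8, FOXA1, PDZK1 and ESR2, all with under 20 reads per sample, too low to test closely.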

Other observations

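Genes tied to ERα in breast cells that had almost no reads were not all at the same level in each sample. FOXA1 and PDZK1 had 16 and 12 reads in LY500307 replicate 1 and 1 to 4 reads in each other sample, and AGR2, a secretory chaperone gene of luminal cells, had 4 reads in that sample and 0 elsewhere. These genes were chosen after their values were seen, did not pass the expression filter and were not tested. SCUBE2, a secreted protein gene of luminal breast tumors, had 6 and 9 reads with vehicle and 18 and 14 with LY500307 (log2 fold change 0.88, standard error 0.61, edgeR adjusted p = 0.542). For KRT18 the log2 fold change was 0.30 (standard error 0.13, edgeR adjusted p = 0.428), and 36.5% of its 50-base words occur more than once in GRCh37.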
